A study of Mus musculus with 51 samples.

Results

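The cornified envelope is the cross-linked protein and lipid shell that stratified squamous epithelia build beneath the plasma membrane of their outermost cells. Its 39 genes described here were taken by gene symbol from a count table of 52636 mouse genes, and each symbol matched 1 row. They comprise 8 envelope scaffold proteins, 4 proteins of the filaggrin type, 4 small proline-rich proteins, 3 transglutaminases, 4 secreted suprabasal proteins, 2 calmodulin-like proteins, 3 barrier lipid genes, 6 proteases, nucleases and their inhibitors, and 5 further barrier genes.

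The 51 libraries are RNA sequencing of sorted mouse cells in 14 groups. SmoM2 is a constitutively active form of Smoothened, the signal transducer of the Hedgehog pathway, and the labels name its construct Krt5-SmoM2, after the keratin of basal squamous cells. Sox9cKO cells (4 libraries) were oesophageal EpCam-high cells of Krt5-SmoM2-Sox9fl/fl mice. K8YFP+ and K8YFP- cells (3 libraries each) were EpCam-high oesophageal cells, with or without YFP, of Krt5-SmoM2-Krt8YFP mice on a mixed background, where YFP reports the simple-epithelial keratin Krt8. Cells labelled 3w and 7w (4 libraries for each week and gate) came from Krt5-SmoM2 oesophagus and passed an EpCam-high or an EpCam-low gate, and the labels do not say from what event the weeks are counted. SmoM2 cells (6 libraries) were EpCam-high oesophageal cells of Krt5-SmoM2 mice of strain CD1. Krt8YFP mice without SmoM2, on a mixed background where the labels give one, gave embryonic oesophagus at E13.5 sorted for EpCam and YFP (2 libraries), the columnar part of the junction sorted for high EpCam and YFP (4 libraries), the squamous part of the junction sorted for high EpCam without YFP (3 libraries), and YFP-sorted stomach and gut (2 libraries each). WT cells (6 libraries) were EpCam-low oesophageal cells of wild-type CD1 mice, and are the only group with neither transgene. The strain of the 3w, 7w, Sox9cKO and junction squamous mice, adult ages, and whether a library pools animals, are not in the labels, so the spread between libraries may be partly technical.

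In a squamous epithelium, basal cells leave the basement membrane, change their keratins and load the envelope in sequence. Involucrin (Ivl), envoplakin (Evpl) and periplakin (Ppl) form a first scaffold, transglutaminases then cross-link loricrin (Lor) and small proline-rich proteins onto it, and lipids made and exported by genes such as Elovl4, Cers3 and Abca12 seal it from outside. Epidermis pairs this programme with the keratins Krt1 and Krt10, whereas oesophagus uses Krt4 and Krt13. Columnar epithelia of stomach and intestine carry simple keratins such as Krt8 and build no cornified envelope.

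On build GRCm38, 10 members (Lor, Sprr2d, Sprr1b, Sprr3, Sprr1a, Ivl, Crnn, Flg2, Flg and Rptn, in that order) lie in the epidermal differentiation complex on chromosome 3 between 92080271 and 93399442. The genes the results turn on most are Calm4 (ENSMUSG00000033765, chr13:3837757-3838673), Pof1b (ENSMUSG00000034607, chrX:112638431-112698651), Sprr1b (ENSMUSG00000048455, chr3:92436809-92438789), Sprr3 (ENSMUSG00000045539, chr3:92456502-92458720), Tgm3 (ENSMUSG00000027401, chr2:130012349-130050399) and Krtdap (ENSMUSG00000074199, chr7:30787896-30791097). Sbsn, Dmkn and Krtdap are neighbours on chromosome 7 between 30751471 and 30791097. RefSeq start-site windows of GRCm38.p6 were matched by symbol for 32 of the 39 members, not for Evpl, Ppl, Calml3, Spink5, Cstb, Nccrp1 and Gsdma. The 200 bases before the start site are shown for 8 of them, because the comparisons turn on these genes and because they differ in the letters found: chr3:92573736-92573935 (minus strand) for Ivl, chr3:92083143-92083342 (minus strand) for Lor, chr3:92485882-92486081 (minus strand) for Sprr1a, chr3:92438780-92438979 (minus strand) for Sprr1b, chr3:92338940-92339139 (plus strand) for Sprr2d, chr7:30787705-30787904 (plus strand) for Krtdap, chr2:130012140-130012339 (plus strand) for Tgm3 and chr13:3837557-3837756 (plus strand) for Calm4. Each reads 5′ to 3′ along its gene. Capitals mark the AP-1 letters TGANTCA, where N is any base, and the TATA box letters TATAAA.
Ivl: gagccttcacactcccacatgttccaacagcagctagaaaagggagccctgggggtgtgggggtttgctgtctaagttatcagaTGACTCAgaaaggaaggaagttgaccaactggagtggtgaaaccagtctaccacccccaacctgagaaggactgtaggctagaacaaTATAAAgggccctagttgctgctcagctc
Lor: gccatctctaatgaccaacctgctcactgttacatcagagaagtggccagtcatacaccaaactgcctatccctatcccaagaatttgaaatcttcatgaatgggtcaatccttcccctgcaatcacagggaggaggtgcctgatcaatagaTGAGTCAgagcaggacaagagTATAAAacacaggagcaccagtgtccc
Sprr1a: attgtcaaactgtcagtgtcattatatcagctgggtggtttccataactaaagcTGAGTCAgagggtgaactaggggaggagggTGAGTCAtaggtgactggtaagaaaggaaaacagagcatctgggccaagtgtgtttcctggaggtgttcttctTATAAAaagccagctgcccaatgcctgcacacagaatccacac
Sprr1b: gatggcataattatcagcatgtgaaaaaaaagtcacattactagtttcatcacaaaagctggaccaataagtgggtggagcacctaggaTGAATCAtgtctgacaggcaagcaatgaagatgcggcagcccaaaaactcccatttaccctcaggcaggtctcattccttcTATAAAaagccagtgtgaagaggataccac
Sprr2d: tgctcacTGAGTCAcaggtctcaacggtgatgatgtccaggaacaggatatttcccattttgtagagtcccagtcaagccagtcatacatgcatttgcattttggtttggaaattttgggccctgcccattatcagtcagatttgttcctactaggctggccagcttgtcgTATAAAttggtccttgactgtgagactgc
Krtdap: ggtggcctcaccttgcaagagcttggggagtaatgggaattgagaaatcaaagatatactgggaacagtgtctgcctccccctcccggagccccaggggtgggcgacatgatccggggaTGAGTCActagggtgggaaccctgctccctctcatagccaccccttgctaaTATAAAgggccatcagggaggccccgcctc
Tgm3: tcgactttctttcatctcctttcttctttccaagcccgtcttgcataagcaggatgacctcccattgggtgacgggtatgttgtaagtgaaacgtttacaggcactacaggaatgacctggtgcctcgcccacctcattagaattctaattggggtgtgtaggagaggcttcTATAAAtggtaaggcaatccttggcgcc
Calm4: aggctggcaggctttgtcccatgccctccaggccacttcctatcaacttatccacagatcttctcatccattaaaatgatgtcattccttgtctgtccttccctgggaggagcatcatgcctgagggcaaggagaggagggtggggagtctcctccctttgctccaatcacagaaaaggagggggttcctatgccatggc
Sprr1a holds a pair of AP-1 matches, Ivl, Lor, Sprr1b, Sprr2d and Krtdap each hold one, and Tgm3 and Calm4 hold none. In windows of 300 bases (250 before and 50 after the start), read on both strands, TGANTCA was found for 15 of 32 members (46.9%) and for 9.0% of the 27025 gene symbols with a window. A symbol with several windows was counted where any of them held the letters. TATAAA was found for 12 members (37.5%) and for 15.7% of all symbols. The short Krüppel-like letters CACCC were found for 25 members (78.1%) and for 59.8% of all symbols, and the Grainyhead core letters ACCGGT for 0 members and for 2.7% of all symbols. These are letter matches in fixed windows, not measured binding.

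Depth was 1606571 to 6706081 counts per library in K8YFP+ cells, 2805103 to 3632293 in gut and 3192411 to 12262365 in the other groups. Levels are given as CPM, counts scaled by a library's total, and fold changes as log2 values from edgeR with TMM scaling. A gene counts as called where the Benjamini-Hochberg adjusted p over all genes tested is under 0.05, and 4 members (Flg, Flg2, Crnn and Rhcg) were too low to be tested in most comparisons. WT library 1 was the highest WT library in 25 of the 30 members with a WT mean of at least 10 CPM, and WT library 2 the lowest in 23, so the WT spread is wide. WT libraries 3 and 5, and 4 and 6, differed least of all WT pairs. Their chi-square per degree of freedom was 1.92 and 2.47, against 11.0 to 35.6 for other pairs. They were kept apart, but a difference beyond counting noise does not show that they are independent. Past the leading number, the names of 3 and 5 match, as do those of 4 and 6. That of WT library 2 also matches 3 and 5, from which it differed more (25.0 and 26.7). The labels do not say whether any are repeats. If so, the n = 6 given for WT cells is too high, and p-values against WT cells may be too small. Exons of Rptn, Tgm1, Sbsn and Ecm1 overlap those of another annotated gene by 45, 182, 279 and 63 bases, for Tgm1 on the opposite strand, and it is not stated whether the counting used strand. The leading number of the library names differs with the group in most comparisons, so any effect of what it marks and the effect of the group cannot be told apart.

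The members were mostly squamous genes in these libraries, with the exceptions named here. Their summed counts made up 2.92 to 3.16% of all counts in K8YFP+ libraries, 1.02 to 1.21% in SmoM2 libraries and 0.855 to 0.881% in junction squamous libraries. The same sum was 0.0415 to 0.0503% in junction columnar libraries, 0.0404 to 0.0478% in stomach, 0.0223 to 0.105% in gut and 0.0713 to 0.115% in embryonic oesophagus, and 0.879 to 1.78% in WT oesophagus. Of the group means of each member, the highest was in K8YFP+ cells for 30 of the 39, and the same was not counted over all genes. Junction squamous cells held the highest mean for Ivl, Crnn, Sprr2d and Lgals7. The classic epidermal filaggrin genes were nearly silent: the mean of Flg, whose product bundles keratins in epidermis, was highest in junction columnar cells at 2.45 ± 1.76 CPM (SD, n = 4) and was 0.164 ± 0.190 CPM (SD, n = 6) in WT cells. Flg2 had no group mean above 0.348 CPM, and Rhcg, an ammonia transporter of oesophageal surface cells, none above 0.115 CPM. Crnn (cornulin) peaked at 1.50 ± 0.0838 CPM (SD, n = 3) in junction squamous cells. At the other end, 6 members (Emp1, Pof1b, Cstb, Evpl, Ppl and Sprr1a) had means over 10 CPM in every group, columnar ones included. Emp1, a tetraspan membrane protein, had its lowest group mean in stomach at 51.8 CPM. Pof1b, an actin-binding protein of cell junctions, had means of 80.9 CPM in gut and 162 CPM in stomach. Cstb (cystatin B, an inhibitor of cathepsins) had its lowest mean in gut at 23.4 CPM. Per kilobase of exon, Krtdap, Sprr1a and Sprr3 led in K8YFP+ cells, at 3497, 2854 and 1779 CPM per kb. Sprr1a, Krtdap and Lgals7 led in SmoM2 cells (957, 724 and 566 CPM per kb), Sprr1a, Lgals7 and Krtdap in junction squamous cells (1152, 1047 and 807 CPM per kb), and Krtdap, Lgals7 and Sprr1a in WT cells (767, 725 and 683 CPM per kb).

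**Figure D1:**
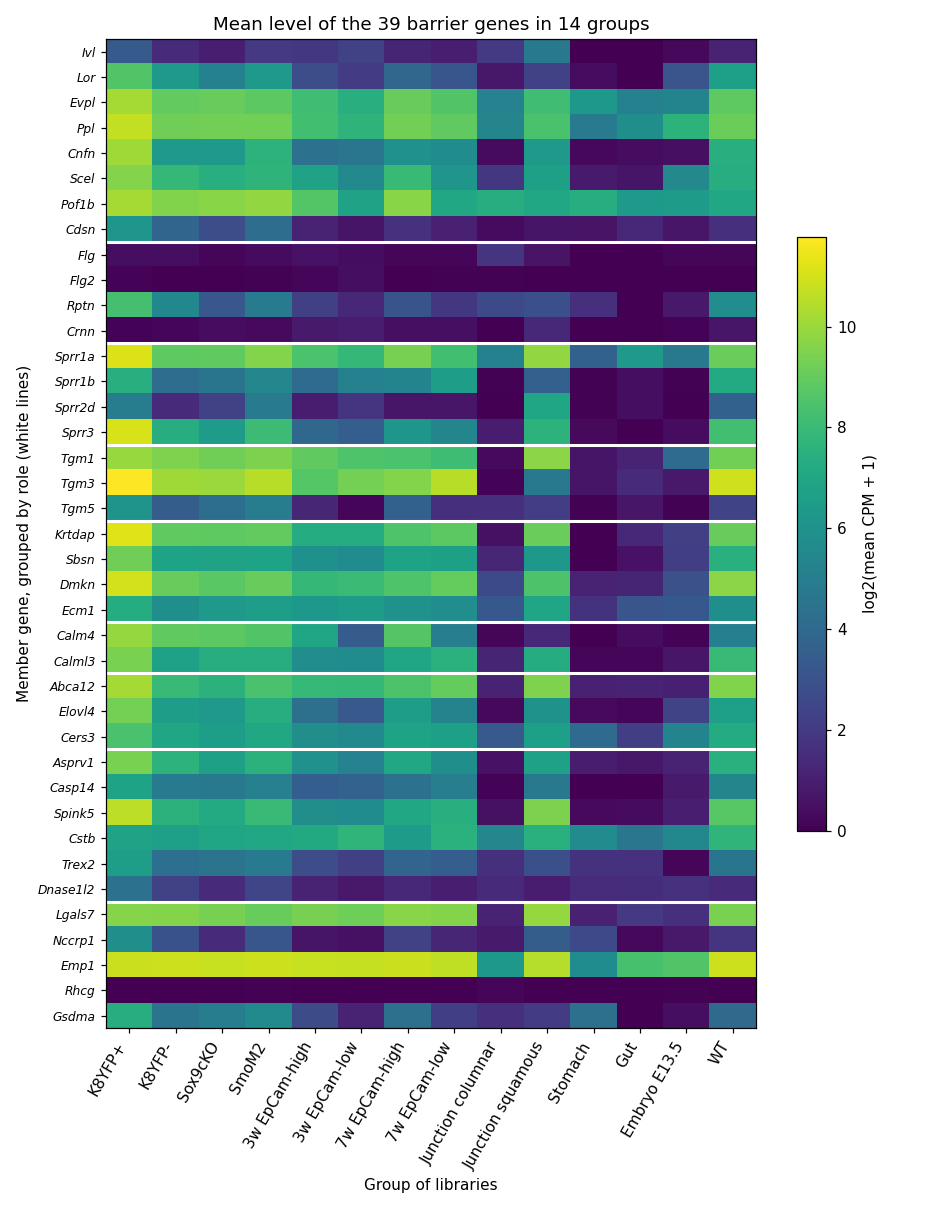
Heat map of log2(mean CPM + 1) of the 39 members (rows, grouped by role between white lines) in the 14 groups (columns). K8YFP+ cells hold the highest mean for 30 members, which was not counted over all genes. The columnar and embryonic columns are dark for most members, and Flg, Flg2, Crnn and Rhcg are near 0 in nearly every group.

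The first comparison set SmoM2 cells against WT cells, which asks how activated Hedgehog signalling goes with the barrier programme. The EpCam gate differs too (high in SmoM2, low in WT), so genotype and gate cannot be told apart here. Of 35 members tested, 9 were higher and 9 lower in SmoM2 cells, close to the 26.2% of all genes called higher and the 23.3% called lower. The members' median log2 fold change was -0.04, beside 0.01 over all genes. Members thus moved in both directions, and their median lay near that of all genes. In bulk libraries a different share of differentiated cells and a different amount of mRNA per cell cannot be told apart. The epidermal keratins Krt10 and Krt1 were higher by 4.82 and 3.94 on the log2 scale, and the oesophageal keratins Krt4 and Krt13 were lower (log2 fold changes -2.23 and -1.17), with adjusted p from 6.91e-10 to 1.92e-05 in edgeR. Gli1, the standard Hedgehog target, was higher by 8.12 (adjusted p = 1.41e-13). Taking all genes of a library as the scale in place of TMM moved the median of all genes by 0.12, and no member call turned direction.

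Among members higher in SmoM2 cells, Calm4, a calmodulin-like calcium-binding protein of stratified epithelia, differed most. It had a lowest of 305, a median of 377 and a highest of 542 CPM in SmoM2 cells, against a lowest of 12.3, a median of 27.4 and a highest of 70.9 CPM in WT cells. The ranges did not overlap, and edgeR gave a log2 fold change of 3.43 ± 0.33 (SE, adjusted p = 7.53e-07). Pof1b had a lowest of 799.8, a median of 913 and a highest of 1094 CPM in SmoM2 cells, against a lowest of 87.5, a median of 109 and a highest of 278 CPM in WT cells. Its lowest SmoM2 library stood well above WT library 1, the highest WT library, and edgeR gave a log2 fold change of 2.68 ± 0.26 (SE, adjusted p = 8.34e-07). Cdsn (corneodesmosin), the adhesive protein that holds cornified cells together, had a lowest of 10.2, a median of 17.4 and a highest of 28.9 CPM in SmoM2 cells, against a lowest of 0.622, a median of 1.44 and a highest of 4.17 CPM in WT cells. These ranges did not overlap either, with a log2 fold change of 2.96 ± 0.39 (SE, adjusted p = 1.94e-05). Tgm5, a transglutaminase of upper epidermis, had a lowest of 25.2, a median of 28.5 and a highest of 43.1 CPM in SmoM2 cells, against a lowest of 0.498, a median of 2.44 and a highest of 13.9 CPM in WT cells. Again every SmoM2 library was above every WT library, with a log2 fold change of 2.71 ± 0.47 (SE, adjusted p = 0.00023). Sprr2d, a small proline-rich cross-bridging protein, had a lowest of 19.3, a median of 29.5 and a highest of 35.2 CPM in SmoM2 cells, against a lowest of 4.00, a median of 13.0 and a highest of 18.0 CPM in WT cells, with a log2 fold change of 1.22 ± 0.30 (SE, adjusted p = 0.00373). Its near-identical Sprr2 relatives can share reads with it, so its own level is uncertain.

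The other 4 members higher in SmoM2 cells overlapped with WT cells. Nccrp1, an F-box-like protein of squamous epithelia, was higher by 1.56 ± 0.34 on the log2 scale (SE). Gsdma (gasdermin A), a pore-forming protein of upper epithelial layers, was higher by 1.47 ± 0.38, and WT library 1 alone reached 43.1 CPM. Dnase1l2, a keratinocyte nuclease that degrades DNA in cornifying cells, was higher by 1.32 ± 0.35. Ivl, the earliest scaffold precursor, was higher by 1.05 ± 0.36 (adjusted p = 0.0245), at means of only 2.92 ± 0.705 CPM (SD, n = 6) in SmoM2 cells and 1.29 ± 0.904 CPM (SD, n = 6) in WT cells. Its call was lost without any one of WT libraries 3, 4, 5 or 6 or SmoM2 library 4, with adjusted p of 0.0504 to 0.0623.

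The 9 members lower in SmoM2 cells were led by Sprr1b, a small proline-rich protein that is typical of squamous mucosa. It had a lowest of 26.6, a median of 38.9 and a highest of 78.0 CPM in SmoM2 cells, against a lowest of 107, a median of 115 and a highest of 289.7 CPM in WT cells. No SmoM2 library reached the lowest WT library, and edgeR gave a log2 fold change of -1.88 ± 0.30 (SE, adjusted p = 0.000105). Abca12, the lipid transporter of lamellar granules, had a lowest of 239.8, a median of 335 and a highest of 427 CPM in SmoM2 cells, against a lowest of 462, a median of 722 and a highest of 1195 CPM in WT cells, without overlap and with a log2 fold change of -1.28 ± 0.19 (SE, adjusted p = 6.86e-05). Cstb had a lowest of 116, a median of 128 and a highest of 167 CPM in SmoM2 cells, against a lowest of 188, a median of 201 and a highest of 234 CPM in WT cells, also without overlap and with a log2 fold change of -0.76 ± 0.11 (SE, adjusted p = 3.12e-05). Spink5, the serine protease inhibitor LEKTI, fell by 0.86 on the log2 scale (adjusted p = 0.0261), and its call was lost without WT library 1 or SmoM2 library 1 or 5. Dmkn and Sbsn, the secreted proteins dermokine and suprabasin, fell by 0.83 and 0.75. The call of Sbsn was lost when libraries were scaled by their total alone (adjusted p = 0.0516), as was that of Spink5 (adjusted p = 0.0558). Calml3, a second calmodulin-like protein, fell by 0.77, the opposite of Calm4. Tgm3, the soluble transglutaminase, and Lgals7 (galectin-7), an epithelial lectin, fell by 0.58 and 0.48.

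**Figure D2:**
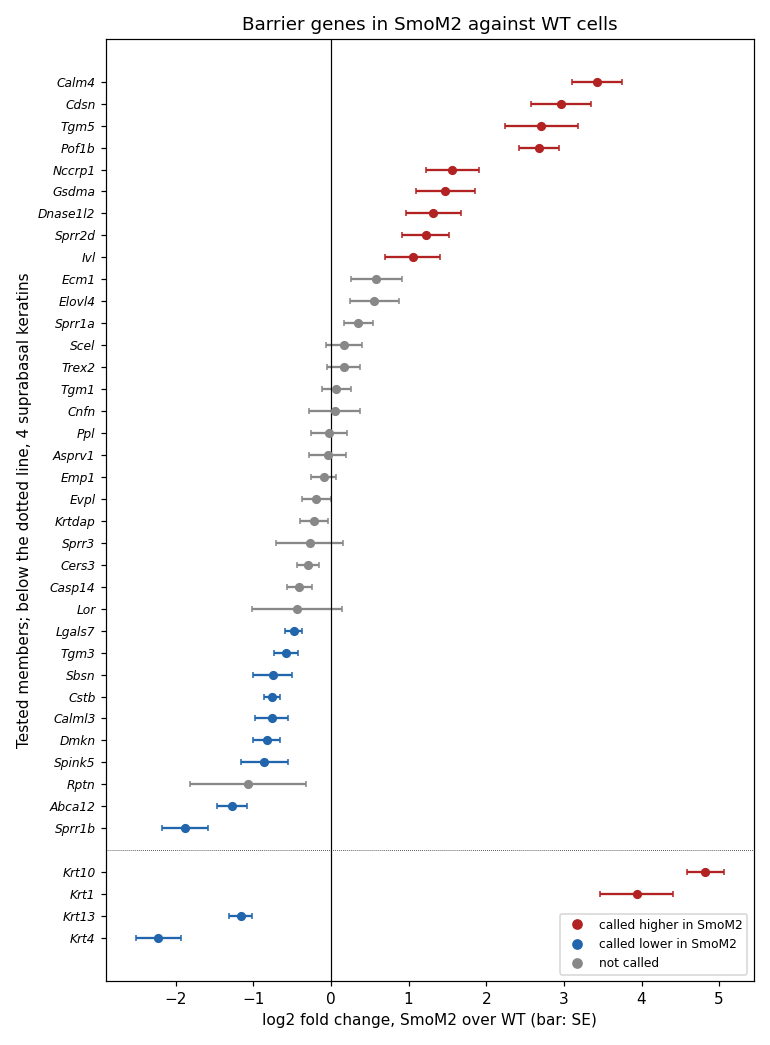
Log2 fold changes of the 35 tested members (above the dotted line) and of 4 suprabasal keratins (below it) in SmoM2 over WT cells, with SE as bars; red was called higher, blue lower and grey was not called. Members run from 3.43 for Calm4 to -1.88 for Sprr1b, with 9 called on each side of 0.

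The remaining 17 tested members passed no threshold in either direction, and they include the scaffold proteins Evpl, Ppl and Lor, though not Ivl. Evpl, Ppl, Tgm1 (the membrane-bound transglutaminase), Krtdap and Emp1 had log2 fold changes of -0.19, -0.02, 0.07, -0.22 and -0.10. Lor averaged 80.1 ± 44.2 CPM in SmoM2 cells and 98.5 ± 109 CPM in WT cells (SD, n = 6 each), and WT library 1 alone stood at 314 CPM. Rptn (repetin), a calcium-binding envelope precursor, had a fold change of -1.07 ± 0.75 (SE) and was not called. Among genes outside the 39, the other genes of the epidermal differentiation complex gave 3 higher and 10 lower of 21 tested, and the other barrier lipid genes 2 higher and 5 lower of 17. Of 15 tested regulators of squamous differentiation, 4 were higher and 5 lower. The transcription factors Barx2 and Maf had the smallest p among them, with log2 fold changes of -2.03 and -2.17.

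The EpCam-high and EpCam-low cells labelled 3w and 7w are other libraries than those of that comparison. Its WT libraries were, however, in the main fit of the gates and entered the filter, the scaling and the spread. Both comparisons also set EpCam-high against EpCam-low cells. Gli1 was higher in EpCam-high than in EpCam-low cells by 2.62 at 3w and 4.26 at 7w, while Krt10 was higher by 2.58 and 3.07 and Krt4 lower (log2 fold changes -2.16 and -3.40). By edgeR, Krt1 was not called at 3w (1.90, adjusted p = 0.0915) and was called higher at 7w (2.03, adjusted p = 0.0237). Its EpCam-high means were only 1.55 CPM at 3w and 2.44 CPM at 7w. At 3w, 5 of 35 members were higher and 3 lower in EpCam-high cells, beside 7.37% and 7.84% of all genes, with medians of 0.32 over the members and -0.01 over all genes. At 7w, 9 were higher and 6 lower, beside 15.5% and 16.8%, with medians of 0.29 and -0.02. The replicate numbers paired the 3w libraries, and with the number as a block 16 of 34 members were higher and 6 lower at 3w, beside 15.3% and 16.6% of all genes. The lower count is thus near the share of all genes.

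The members that differed between SmoM2 and WT cells were then followed between the gates. How often all genes picked in this way moved alike between the gates was not counted. The counts that follow therefore do not set the members apart from other genes. Of the 9 members higher in SmoM2 than in WT cells, 3 were higher and 0 lower in EpCam-high cells at 3w, and 5 were higher and 0 lower at 7w (median log2 fold change 1.39). Of the 9 members lower in SmoM2 cells, 0 were higher and 3 lower at 3w, and 0 higher and 5 lower at 7w (median -0.54). With the replicate number as a block at 3w, 4 of the first 9 were higher and 1 (Sprr2d, -1.49, adjusted p = 0.00136) lower, and 4 of the second 9 were lower and 1 (Lgals7, 0.14, adjusted p = 0.0493) higher. Calm4 had 157, 137, 93.0 and 114 CPM in EpCam-high cells at 3w, against 13.8, 13.0, 5.72 and 6.13 CPM in EpCam-low cells. At 7w it had 415, 329, 417 and 433 CPM in EpCam-high cells, against 34.2, 27.1, 25.7 and 42.3 CPM in EpCam-low cells. The gates did not overlap in either week, and edgeR gave 3.66 ± 0.39 and 3.58 ± 0.36 (SE) at 3w and 7w (adjusted p = 3.06e-07 and 2.63e-08). Pof1b had 398, 418, 390.5 and 396 CPM in EpCam-high cells at 3w, against 114, 92.2, 107 and 129 CPM in EpCam-low cells, and 763, 747, 901 and 836 CPM in EpCam-high cells at 7w, against 126, 122, 152 and 129.5 CPM in EpCam-low cells. Its EpCam-high libraries lay within a narrow band in each week, and the log2 fold changes were 1.80 ± 0.26 and 2.57 ± 0.26 (SE). Gsdma was higher by 2.10 at 3w and 2.36 at 7w, and Tgm5 had log2 fold changes of 3.12 at 3w, not called (adjusted p = 0.0707) but called with the block (3.08 ± 0.55, SE, adjusted p = 5.67e-05), and 2.47 at 7w. Nccrp1 was called at 7w (1.39) and not at 3w (0.36), and its call was lost without EpCam-high library 1 or EpCam-low library 3 of 7w and with all 14 groups in one fit. At 3w, the calls of Gsdma and Evpl were lost without EpCam-high library 1, which left 3 higher members (Scel, Pof1b and Calm4). That of Gsdma was also lost without EpCam-high library 2 or EpCam-low library 3 or 4, and that of Evpl without EpCam-low library 2. Scel (sciellin), a precursor of the envelope that SmoM2 and WT cells did not separate, was higher in both weeks, by 1.20 and 1.79.

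On the lower side, Sprr1b had 17.0, 21.3, 10.3 and 16.7 CPM in EpCam-high cells at 3w, against 37.9, 41.7, 25.6 and 35.7 CPM in EpCam-low cells. At 7w it had 63.9, 30.3, 31.0 and 32.3 CPM in EpCam-high cells, against 117, 85.3, 77.6 and 96.3 CPM in EpCam-low cells. The gates did not overlap in either week, with log2 fold changes of -1.16 ± 0.32 and -1.31 ± 0.30 (SE). The call at 3w was lost without EpCam-high library 3 (adjusted p = 0.0596). Tgm3 was lower by the same measure (-0.73 ± 0.17 and -0.95 ± 0.17, SE), and with all 14 groups in one fit neither was called at 3w. Cstb had 139, 149.9, 133 and 139.6 CPM in EpCam-high cells at 3w, against 211, 200.5, 201 and 209.9 CPM in EpCam-low cells, and 96.7, 86.5, 83.2 and 97.5 CPM in EpCam-high cells at 7w, against 182, 172, 189.8 and 199.8 CPM in EpCam-low cells. Its gap between the gates was wider at 7w: the difference of the 2 fold changes was -0.48 (adjusted p = 0.0199). In that fit 1 of 35 members was lower and 0 higher, beside 0.759% and 1.55% of all genes. With the replicate number as a block 7 of 34 members were lower, Cstb among them, and 6 higher, beside 6.17% and 7.33%. The call of Cstb was lost with no filter, with all 14 groups in one fit, and without EpCam-high library 2 of either week, EpCam-low library 2 or 3 of 3w or EpCam-low library 4 of 7w, with adjusted p of 0.0509 to 0.49. Dmkn, Calml3 and Casp14, the protease that processes filaggrin, were lower in EpCam-high cells at 7w, with log2 fold changes of -0.50, -0.64 and -0.70. The calls of Dmkn and Calml3 were each lost without any one of several libraries, EpCam-high library 2 of 7w among them, and with all 14 groups in one fit.

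**Figure D3:**
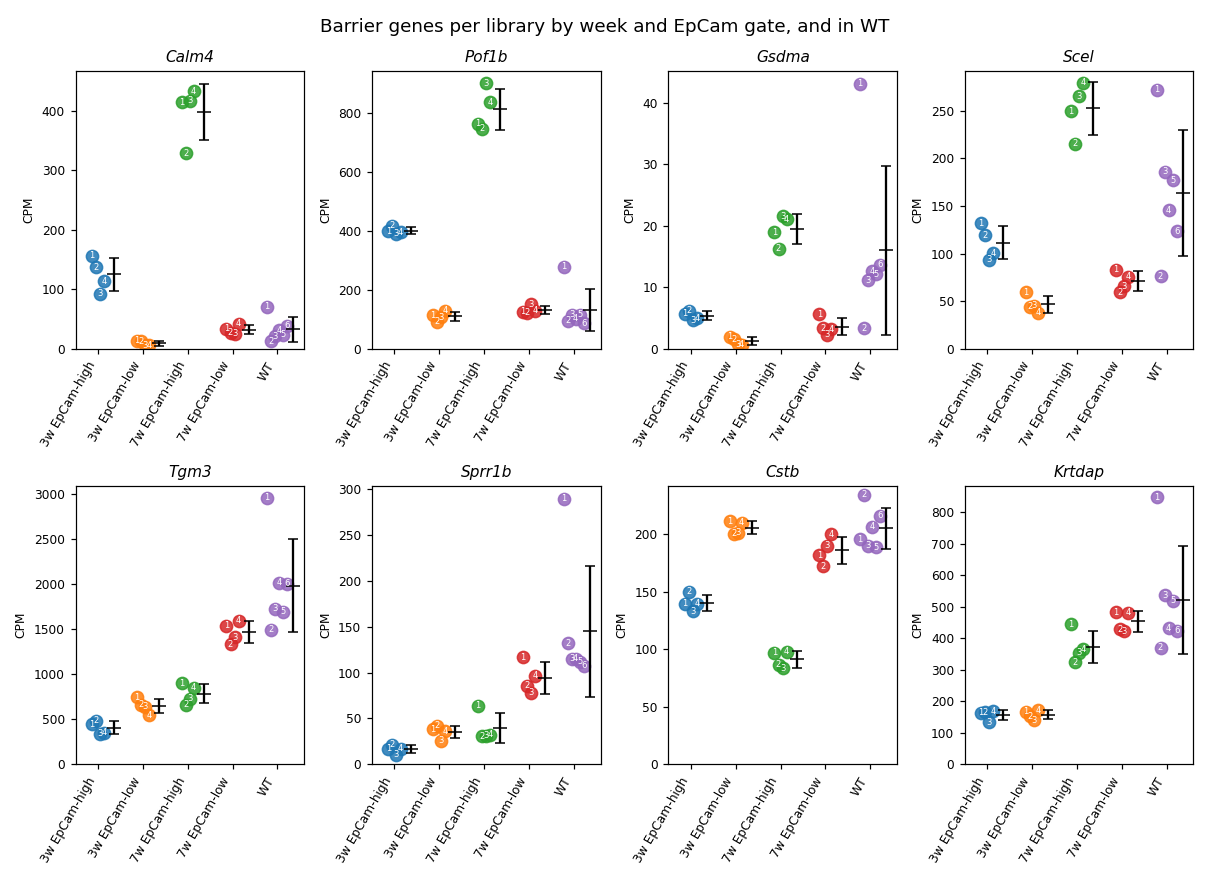
CPM of 8 members in each library (numbered points) of EpCam-high and EpCam-low cells at 3w and 7w and of WT cells, with the group mean and SD beside them in black. Calm4, Pof1b, Gsdma and Scel are higher in the EpCam-high gate in both weeks, Tgm3, Sprr1b and Cstb are lower there, and Krtdap is higher at 7w in both gates.

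Between 7w and 3w the set moved one way. In EpCam-high cells, 25 of 35 members were higher and 2 lower at 7w, beside 22.0% and 19.4% of all genes, with medians of 0.97 over the members and 0.02 over all genes. In EpCam-low cells, 20 were higher and 3 lower, beside 19.5% and 18.4%, with medians of 1.08 and 0.02. The weeks carry different leading library numbers, so week and that number cannot be told apart. Krtdap, a secreted regulator of keratinocyte differentiation, had 444, 323, 353 and 364 CPM in EpCam-high cells at 7w, against 163, 164, 133 and 167 CPM at 3w. In EpCam-low cells it had 482, 428, 422 and 481 CPM at 7w, against 166, 153, 139 and 171 CPM at 3w. The weeks did not overlap in either gate, with log2 fold changes of 1.19 ± 0.19 and 1.47 ± 0.19 (SE, adjusted p = 2.54e-05 and 2.48e-06). Elovl4, the elongase of very long chain fatty acids, had 99.4, 79.4, 105 and 90.4 CPM in EpCam-high cells at 7w, against 20.0, 20.6, 20.3 and 17.6 CPM at 3w, and 52.2, 30.6, 30.5 and 35.8 CPM in EpCam-low cells at 7w, against 11.2, 9.92, 7.38 and 6.78 CPM at 3w. It was higher at 7w by 2.20 and 2.03 in the EpCam-high and EpCam-low cells, again without overlap. Sprr3, a small proline-rich protein of oesophageal surface cells, was higher by 2.17 and 1.93, its call in EpCam-low cells being lost without library 1 of 7w (adjusted p = 0.051). Spink5 was higher by 1.20 and 1.64, and Calml3 by 1.11 and 1.76. The exceptions were few. Cstb was lower at 7w in EpCam-high cells (-0.68 ± 0.08, SE), as was Tgm1 (-0.53 ± 0.19, SE), whose call was lost without any one of EpCam-high libraries 1, 2 or 4 of 3w or 1 or 2 of 7w. In EpCam-low cells Ivl, Sprr2d and Cstb were lower at 7w (-1.99, -1.86 and -0.20), and the calls of Sprr2d and Cstb were lost without 1 of several libraries, leaving 1 called lower. Other barrier lipid genes behaved likewise: 10 of 17 were higher and 2 lower in EpCam-high cells at 7w, and 10 higher and 3 lower in EpCam-low cells, Cyp4f39 having the smallest p in both. The other genes of the epidermal differentiation complex did not. Of 18 tested, 3 were higher and 2 lower in EpCam-high cells at 7w (median 0.01), and 2 higher and 2 lower in EpCam-low cells (median 0.0).

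The EpCam-low gate was shared by SmoM2 and WT mice, so EpCam-low cells at 3w and 7w were set against WT cells within a gate. The leading library number differs as well as the genotype, and strain and age may, so these cannot be told apart. The members' summed share of counts was also lower in EpCam-high cells at 3w (0.552 to 0.655%) and 7w (0.820 to 0.994%) than in SmoM2 cells (1.02 to 1.21%), which have the same gate and construct. At 3w, 1 member was higher and 29 of 35 were lower than in WT cells, beside 23.1% and 24.3% of all genes, with medians of -1.82 over the members and 0.01 over all genes. At 7w, 0 were higher and 22 lower, beside 19.4% and 21.0%, with medians of -0.85 and 0.01. Both comparisons use the same WT libraries, and 19 members were lower at 7w without WT library 1 and 28 without WT library 2. Lor, the bulk protein of the epidermal envelope, had 3.49, 2.75, 4.05 and 3.07 CPM in EpCam-low cells at 3w and 7.23, 9.09, 6.28 and 9.44 CPM at 7w, against a lowest of 11.4, a median of 65.8 and a highest of 314 CPM in WT cells. Neither week overlapped with WT, with log2 fold changes of -4.94 ± 0.67 at 3w and -3.77 ± 0.60 at 7w (SE, adjusted p = 2.36e-06 and 3.27e-05). Sprr3 had 13.4, 16.5, 6.31 and 6.13 CPM in EpCam-low cells at 3w and 60.8, 32.0, 28.6 and 44.4 CPM at 7w, against a lowest of 66.2, a median of 210.5 and a highest of 865 CPM in WT cells. Its log2 fold changes were -4.90 ± 0.60 and -2.97 ± 0.52 (SE), also without overlap. Rptn and Gsdma were lower in both weeks, with log2 fold changes of -5.15 at 3w and -4.43 at 7w for Rptn and of -3.80 and -2.25 for Gsdma. Sprr2d was lower too, with -2.28 at 3w and -4.14 at 7w. Ivl was the 1 member higher at 3w (1.50 ± 0.41, SE), at 3.64, 4.12, 1.91 and 5.65 CPM in EpCam-low cells, against a lowest of 0.427, a median of 1.09 and a highest of 2.92 CPM in WT cells. Its fold change at 7w was -0.49, not called. Without WT library 3 or 5, Ecm1, a secreted matrix protein of skin, was called higher at 3w as well. Calm4, far higher in EpCam-high SmoM2 cells, was lower than in WT cells in EpCam-low cells at 3w (-1.85 ± 0.37, SE, adjusted p = 0.000247) and not called at 7w (-0.15). Pof1b was not called in either week (-0.33 at 3w and -0.13 at 7w). Krt4 and Krt13 were lower at 3w (-1.94 and -1.39) and not called at 7w (-0.38 and -0.19). The epidermal keratins Krt10 and Krt1 were likewise lower at 3w (median -1.93) and not called at 7w (median -0.74).

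K8YFP+ cells, which carry the reporter of a simple-epithelial keratin, held more barrier mRNA than K8YFP- cells in the same EpCam-high gate. Of 35 members tested, 25 were higher and 0 lower in K8YFP+ cells, beside 13.1% of all genes called higher and 6.83% called lower, with medians of 2.67 over the members and -0.03 over all genes. The replicate numbers paired these libraries, and with the number as a block 33 of 35 members were higher and 0 lower, beside 18.3% and 12.4% of all genes. Every tested member had a positive fold change. Leaving out 1 library gave 20 to 29 members higher, 20 without K8YFP- library 3. Krt8 itself was higher by 4.29 and basal Krt5 lower (-1.17), while both Krt4 (3.45) and Krt10 (1.72) were higher. Of the other epidermal keratins, Krt1 was not called (1.17 ± 1.09, SE, edgeR adjusted p = 0.473). Krt2 was called higher (4.74), at a K8YFP+ mean of 6.41 CPM.

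By role, the small proline-rich proteins were all higher. Sprr3 had 2323, 2452 and 1748 CPM in K8YFP+ cells, against 394, 49.5 and 38.1 CPM in K8YFP- cells. The lowest K8YFP+ library was above the highest K8YFP- library, and edgeR gave a log2 fold change of 4.12 ± 0.92 (SE, adjusted p = 0.0198). Its call was lost without K8YFP- library 2 or 3 (adjusted p = 0.0521 and 0.0547). Sprr1a, Sprr1b and Sprr2d were higher by 2.69, 3.65 and 4.55, the call of Sprr2d being lost without K8YFP+ library 2 or any 1 K8YFP- library. In the scaffold, Cnfn (cornifelin) had 1028, 1392 and 897 CPM in K8YFP+ cells, against 184, 32.3 and 22.7 CPM in K8YFP- cells. The groups did not overlap, with a log2 fold change of 4.17 ± 0.82 (SE, adjusted p = 0.0137). Evpl and Ppl were higher by 1.64 and 1.84, and Scel by 2.13. Ivl was present in only part of the K8YFP+ libraries, at 23.4, 0 and 3.67 CPM, against 4.22, 0.428 and 0.549 CPM in K8YFP- cells, and was not called (adjusted p = 0.12). With the block it was called, at 2.57 ± 0.49 (SE, adjusted p = 0.00745). Lor, Pof1b, Cdsn, Rptn, Cstb, Dnase1l2 and Nccrp1 were likewise not called without the block and called with it, for example Lor at 3.14 ± 0.41 (SE, adjusted p = 0.00151) and Pof1b at 0.99 ± 0.14 (SE, adjusted p = 0.00227).

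Among the enzymes, Tgm3 had 3749.7, 2977 and 3843 CPM in K8YFP+ cells, against 1462, 1154 and 630.2 CPM in K8YFP- cells. Every K8YFP+ library was higher, with a log2 fold change of 2.08 ± 0.31 (SE, adjusted p = 0.00578). Tgm1 was higher by 0.83, a call lost when libraries were scaled by their total (adjusted p = 0.149) and without any one of 5 libraries (all except K8YFP- library 1). Tgm5 was higher by 3.10. Spink5 had 1429.7, 1772 and 1453 CPM in K8YFP+ cells, against 324, 144 and 94.7 CPM in K8YFP- cells, with a log2 fold change of 3.44 ± 0.47 (SE, adjusted p = 0.00447). Asprv1, the skin aspartic protease that cleaves profilaggrin, Casp14 and the exonuclease Trex2 were higher by 2.16, 2.37 and 2.67, Asprv1 losing its call without any one of 4 libraries. All 3 lipid members rose: Abca12 by 2.59, Elovl4 by 3.11 and Cers3, which makes ceramides with very long chains, by 1.85. The call of Elovl4 was lost without K8YFP- library 3 (adjusted p = 0.0525). All 4 secreted members rose as well, Krtdap with 1720.2, 3177 and 2226 CPM in K8YFP+ cells, against 531, 514 and 403 CPM in K8YFP- cells. Calm4 and Calml3, which moved in opposite directions between SmoM2 and WT cells, were both higher here, by 1.39 and 3.06. Lgals7 and Emp1 were called neither with nor without the block, at 0.43 ± 0.19 and 0.31 ± 0.18 (SE).

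**Figure D4:**
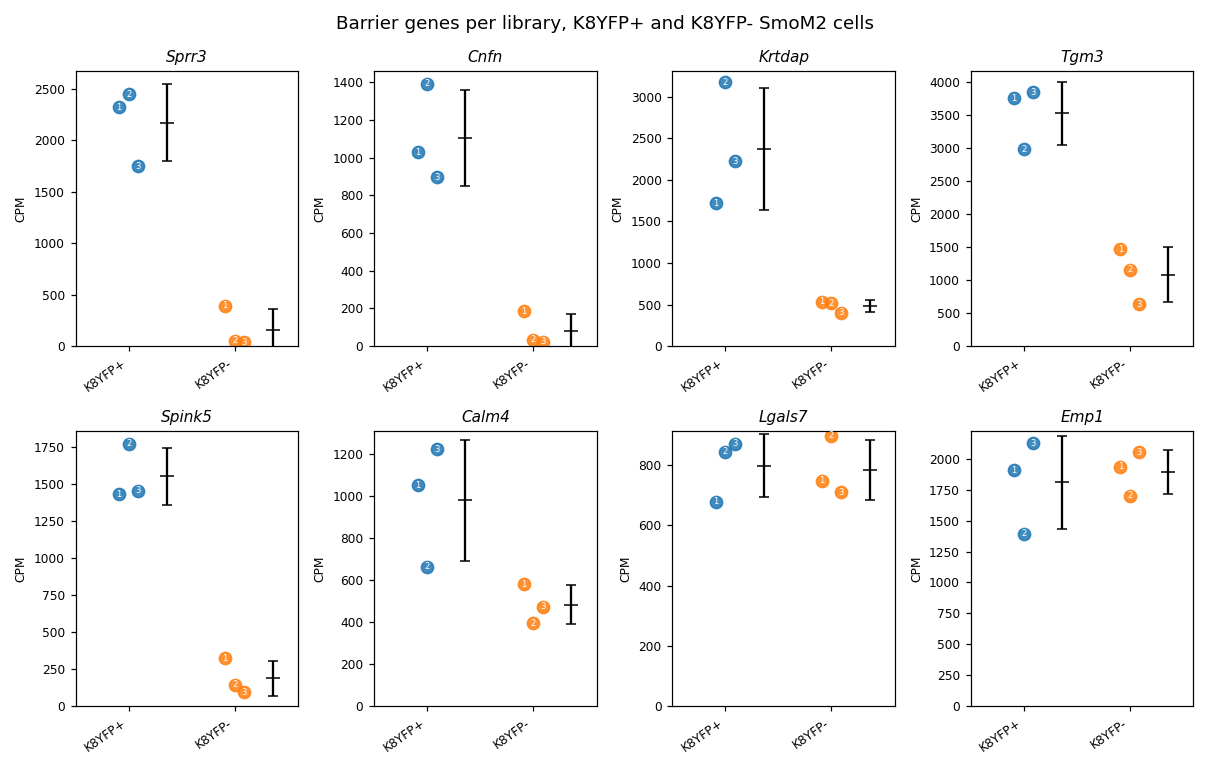
CPM of 8 members in each library (numbered points) of K8YFP+ and K8YFP- cells, with the group mean and SD in black. Sprr3, Cnfn, Krtdap, Tgm3, Spink5 and Calm4 do not overlap between the groups, whereas Lgals7 and Emp1 do; K8YFP- library 1 is the highest K8YFP- library in 26 of 31 members with a mean of at least 10 CPM.

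Outside the 39, 13 of 21 tested genes of the epidermal differentiation complex were higher in K8YFP+ cells and 0 lower, and 17 of 17 other barrier lipid genes were higher. Of 15 regulators, 8 were higher and 1 lower, with Grhl1, Hopx and Klf4 first by p (log2 fold changes 1.86, 3.39 and 1.37). Markers of other cells moved with the group: the summed level of 7 fibroblast markers ranged over 68.7 to 595 CPM in K8YFP+ libraries, against 16.5 to 77.6 CPM in K8YFP- libraries, and 5 of the 7 were called higher. The sum of 4 endothelial markers ranged over 23.0 to 109 CPM in K8YFP+ libraries, against 10.5 to 16.7 CPM, and that of 5 muscle markers over 6.81 to 236 CPM, against 4.46 to 17.0 CPM. None of these markers had 0 counts over a group, and their part in the result was not tested. K8YFP+ libraries held 1606571 to 6706081 counts, against 8528448 to 9342474 in K8YFP- libraries, and scaling by the library total moved the median of all genes by -0.38.

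Sox9, a transcription factor of progenitor cells and the gene targeted in Sox9cKO cells, had 51.7, 45.7, 127 and 45.8 CPM in the Sox9cKO libraries, against a lowest of 72.7, a median of 90.0 and a highest of 194 CPM in SmoM2 libraries. The library labelled Sox9cKO 3 thus lay within the SmoM2 range, and the fold change over all libraries was -0.62 ± 0.36 (SE, adjusted p = 0.361). A count over the whole gene can include exons outside the deleted stretch, which the labels do not give. The comparison uses the same SmoM2 libraries as that with WT cells. Of 35 members, 0 were higher and 1 lower in Sox9cKO than in SmoM2 cells, beside 1.18% and 1.48% of all genes, with medians of -0.49 over the members and 0.00 over all genes. By edgeR, 14 members had an unadjusted p under 0.05, beside 19.7% of all genes. DESeq2 called 6 members lower and 0 higher, beside 3.78% and 3.29% of all genes. The called member was Sprr2d, with 1.96, 12.2, 0.921 and 0.204 CPM in Sox9cKO cells, against a lowest of 19.3, a median of 29.5 and a highest of 35.2 CPM in SmoM2 cells. The groups did not overlap, with a log2 fold change of -2.82 ± 0.66 (SE, adjusted p = 0.042), but Sox9cKO library 2 stood above its 3 fellows and the call was lost without any 1 library other than that one (adjusted p of 0.0547 to 0.111).

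Library 2 was the highest Sox9cKO library in 20 of the 29 members with a mean of at least 10 CPM. It was thus picked by the members' own levels, and leaving it out lowers most of their Sox9cKO means by construction. Its Sox9, at 45.7 CPM, gave no ground to leave it out. The fit without it shows only how far the calls depend on 1 library. Without library 2, 15 of 35 members were lower and 0 higher, beside 8.06% and 4.34% of all genes. Sprr2d then had -4.78 ± 0.42 (SE, adjusted p = 0.000244), Nccrp1 -3.12 ± 0.45 (SE, adjusted p = 0.00189), Sprr3 -2.73 ± 0.58 (SE, adjusted p = 0.0115) and Cnfn -2.16 ± 0.44 (SE, adjusted p = 0.00986). Abca12, Elovl4 and Cers3, all 3 lipid members, were lower as well, at -1.51 ± 0.24 (SE, adjusted p = 0.00305), -1.36 ± 0.23 (SE, adjusted p = 0.00428) and -0.58 ± 0.14 (SE, adjusted p = 0.0205). Without library 3, the one with high Sox9, 0 members were called, beside 0.675% of all genes lower and 0.509% higher. Sprr3 shows the spread, with 91.7, 240.2, 12.8 and 13.1 CPM in Sox9cKO cells, against a lowest of 165, a median of 276 and a highest of 369 CPM in SmoM2 cells. Sox9cKO library 2 lay within the SmoM2 range, and the other 3 libraries lay below it. Elovl4 had 90.6, 139.6, 37.2 and 55.0 CPM in Sox9cKO cells, against a lowest of 140.4, a median of 149 and a highest of 197 CPM in SmoM2 cells, without overlap but not called (-0.93 ± 0.29, SE, adjusted p = 0.105). Ivl and Cers3 did not overlap between the groups either, at log2 fold changes of -1.49 and -0.49. In contrast, Krtdap (-0.01), Sbsn (-0.02), Ppl (0.06), Calml3 (0.03) and Emp1 (-0.04) had fold changes near 0, and Calm4 (0.26) and Lgals7 (0.36) were on the other side of 0, none of them called. The fibroblast marker sum ranged over 32.8 to 186 CPM in Sox9cKO libraries, against 20.0 to 36.5 CPM in SmoM2 libraries, with none of the 7 markers at 0, and its part was not tested.

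**Figure D5:**
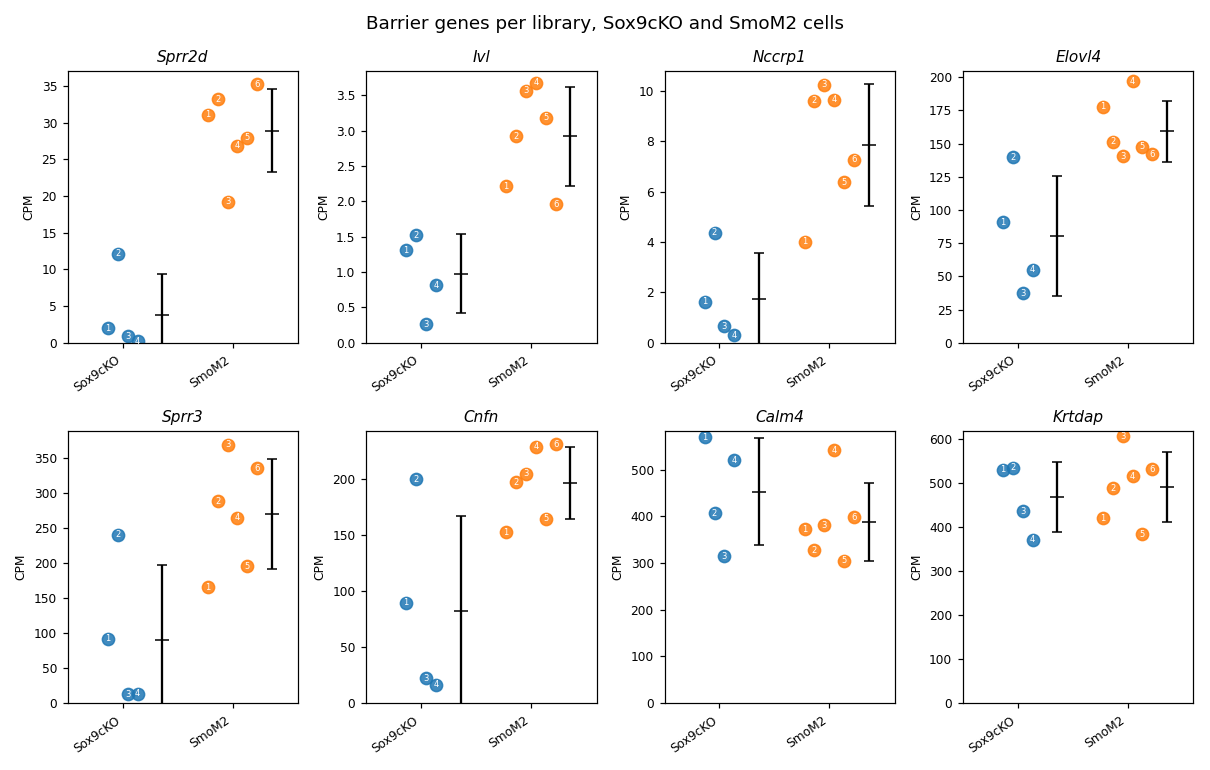
CPM of 8 members in each library (numbered points) of Sox9cKO and SmoM2 cells, with the group mean and SD in black. Sox9cKO library 2 is the highest Sox9cKO library for Sprr2d, Nccrp1, Sprr3 and Cnfn, and only Sprr2d passed the adjusted threshold with all libraries.

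At the junction, where squamous epithelium meets columnar epithelium, nearly the whole set was lower in columnar cells. Of 32 members tested, 0 were higher and 30 lower in junction columnar than in junction squamous cells, beside 39.2% and 35.2% of all genes, with medians of -5.77 over the members and 0.08 over all genes. Tgm1 had 0.154, 0.170, 0 and 0.542 CPM in junction columnar cells, against 826, 834 and 930.1 CPM in junction squamous cells, with a log2 fold change of -12.08 ± 0.22 (SE, adjusted p = 2.71e-11). Spink5 had 0.154, 1.02, 0 and 0.542 CPM in junction columnar cells, against 684, 690.2 and 758 CPM in junction squamous cells, with a log2 fold change of -10.87. Krtdap had 0.615, 0.681, 0 and 0.542 CPM in junction columnar cells, against 546, 559 and 539 CPM in junction squamous cells, with a log2 fold change of -10.36. In each case the columnar libraries were near 0 and the squamous ones alike among themselves. Sprr2d had 0 counts in the 4 columnar libraries and was at least 904-fold lower (against 3 counts over the columnar group), and Crnn, also at 0 there, at least 11.1-fold lower. Pof1b was the exception with a level, at 149, 160.1, 158 and 172 CPM in junction columnar cells, against 114, 120.0 and 147 CPM in junction squamous cells. Its fold change was 0.02 ± 0.10 (SE), and scaling by the library total called it higher in columnar cells. Evpl and Emp1 fell but were not lost, at 32.7, 34.9, 32.4 and 47.2 CPM for Evpl in junction columnar cells, against 283, 274 and 311 CPM in junction squamous cells, and with a log2 fold change of -4.53 for Emp1. Rptn was not called (-0.71), and the calls of Gsdma (-0.88) and Tgm5 (-1.01) were lost under the library total and without junction squamous library 1 or 3, that of Gsdma also without junction columnar library 3 or 4 and that of Tgm5 without junction columnar library 1. Of 16 regulators, 15 were lower in columnar cells and 0 higher. The immune marker sum ranged over 183 to 416 CPM in junction columnar libraries, against 14.7 to 21.1 CPM in junction squamous libraries, where Lyz2 was at 0, and its part was not tested. Scaling by the library total moved the median of all genes by 0.31.

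Junction squamous cells differed from WT oesophageal cells member by member. In the fit of all 51 libraries, 6 of 37 members were higher and 15 lower in junction squamous cells, beside 16.2% and 14.3% of all genes, with medians of -0.64 over the members and 0.00 over all genes. Gate, genotype and library number all differ between these groups and cannot be told apart, and Gli1 was higher in junction squamous cells by 4.56. Ivl had 25.8, 29.0 and 23.5 CPM in junction squamous cells, against a lowest of 0.427, a median of 1.09 and a highest of 2.92 CPM in WT cells. The groups were far apart, with a log2 fold change of 4.35 ± 0.54 (SE, adjusted p = 2.45e-08). Sprr2d had 110.4, 102 and 154 CPM in junction squamous cells, against a lowest of 4.00, a median of 13.0 and a highest of 18.0 CPM in WT cells, with a log2 fold change of 3.44 ± 0.54 (SE, adjusted p = 3.16e-06). Ecm1, Crnn, Lgals7 and Nccrp1 were the other members higher, by 1.03, 1.30, 0.54 and 2.07, and Crnn lost its call without junction squamous library 2 or 3 and Ecm1 without library 1. Tgm3 went the other way, with 27.6, 31.2 and 20.7 CPM in junction squamous cells, against a lowest of 1489, a median of 1861 and a highest of 2953 CPM in WT cells. It gave a log2 fold change of -6.21 ± 0.39 (SE, adjusted p = 4.16e-17), whereas Tgm1 had a fold change of 0.52 and was not called. Lor, Calm4 and Sprr1b were lower, with log2 fold changes of -4.69, -4.47 and -3.66. Calm4 and Krt10 parted here: Krt10 was higher by 6.76 and Krt1 by 9.75, Krt4 was lower (-6.70), while Calm4 was lower and Cdsn was not called (-1.74), both of which were higher beside Krt10 in SmoM2 cells. Without junction squamous library 2, 5 members were higher and 9 lower, and without WT library 1, 8 higher and 10 lower.

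Embryonic oesophagus at E13.5, before the epithelium stratifies fully, held the least of the set among oesophageal groups. Stage, the sort for EpCam and YFP, and genotype differ between these cells and WT cells, and strain may, so they cannot be told apart. Of 37 members tested, 0 were higher and 34 lower than in WT cells, beside 36.1% and 27.8% of all genes, with medians of -5.89 over the members and 0.16 over all genes. Krtdap had 3.60 and 3.94 CPM in embryonic cells, against a lowest of 370.1, a median of 475 and a highest of 847 CPM in WT cells. Tgm3 had 0.554 and 0.916 CPM in embryonic cells, against a lowest of 1489, a median of 1861 and a highest of 2953 CPM in WT cells. These were differences of -7.63 ± 0.36 and -11.87 ± 0.64 on the log2 scale (SE), with no overlap. Sprr2d was at 0 counts in both embryonic libraries and at least 83-fold lower, against 3 counts over the group. Ppl and Scel were among the members with the smallest falls. Ppl had 155 and 238 CPM in embryonic cells, against a lowest of 329.5, a median of 489.6 and a highest of 1098 CPM in WT cells, and Scel had 32.0 and 60.7 CPM in embryonic cells, against a lowest of 76.3, a median of 161 and a highest of 272 CPM in WT cells. Their log2 fold changes were -2.06 ± 0.32 and -2.35 ± 0.32 (SE). Emp1 averaged 388 CPM in embryonic cells and 1870 CPM in WT cells (-2.81 ± 0.47, SE). Pof1b averaged 88.3 CPM in embryonic cells and 132 CPM in WT cells, and its call (-1.12) was lost without embryonic library 1 and under the library total. Cdsn, Flg and Dnase1l2 were not called, and the calls of Ivl and Nccrp1 were lost without either embryonic library, that of Nccrp1 also without WT library 1. All 16 regulators were lower in embryonic cells. The fibroblast marker sum ranged over 235 to 421 CPM in embryonic libraries, against 18.9 to 112 CPM in WT libraries, with none of the 7 markers at 0, and its part was not tested. Scaling by the library total moved the median of all genes by 0.53. With only the WT libraries that share the embryonic libraries' leading number, 32 of 37 members were lower and 0 higher, beside 24.8% and 31.3% of all genes.

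Set side by side, some members took the same course between SmoM2 and WT cells and between the 7w gates. Both of these set EpCam-high against EpCam-low cells, and the comparisons given here partly share libraries. Calm4, Pof1b, Tgm5 and Gsdma were higher in SmoM2 than in WT cells and in EpCam-high than in EpCam-low cells at 7w, as was Krt10. Sprr1b, Tgm3, Cstb, Dmkn and Calml3 were lower in both, as were Krt4 and Krt13. In junction squamous against WT cells, by contrast, Krt10 was called higher, while Calm4 and Gsdma were called lower and Pof1b and Tgm5 were not called. Sprr1b, Tgm3, Dmkn and Calml3 were lower there, as were Krt4 and Krt13, and Cstb was not called. Scel, Asprv1, Elovl4 and Sprr1a were called between the gates at 7w (1.79, 1.16, 1.28 and 1.13) but not between SmoM2 and WT cells, and so was Casp14, on the lower side (-0.70). Nccrp1 was called higher in both. Of the 9 members on each side in SmoM2 cells, K8YFP+ cells had 4 of the higher and 7 of the lower ones above K8YFP- cells, and 0 of either below them. For all genes called on each side in SmoM2 cells this was not counted.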

How the data were processed

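Total RNA of sorted cells was made into libraries with the NuGen Ovation Solo system and sequenced on a NovaSeq, per the labels' protocols. The submitters' processing notes name STAR 2.5.3a, HTSeq, edgeR, GRCm38 and mm10. The authors deposited a table of raw read counts per gene (52636 genes, 51 libraries), of which 10741 genes had no count, and its strand setting is not given in the sources used here.

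Samples were grouped by their labels. The 39 members and the other gene lists were chosen with earlier results of these data known. CPM were computed from the deposited counts over each library's total. Tests were edgeR 4.0.16 quasi-likelihood F tests in R 4.3.3 on the counts, two-sided, with TMM scaling, filterByExpr (minimum count 10, minimum total 15) and Benjamini-Hochberg adjustment over all genes tested, called under 0.05. The scripts were tested on simulated data. The reporter, SmoM2-WT, Sox9cKO-SmoM2 and columnar-squamous junction comparisons were fitted with their own libraries only. The week and gate groups were fitted with WT, and the remaining comparisons in a fit of all 51 libraries. Where the 2 groups share a replicate number in the labels, same-numbered libraries were checked for shared deviations: correlations were 0.311 to 0.448 for the K8YFP groups and 0.189 to 0.334 for the 3w gates, all over 0.1, so these numbers were taken as pairs. Alternatives were size factors of the DESeq2 kind, library totals, no filter, DESeq2 1.42.0, 1 fit of all 14 groups, a replicate block, the most alike WT libraries summed, and each library left out. Any member could be named. Of other genes, keratins, label checks, cell type markers and the 3 of each list with the smallest p could be. The result of 1 such gene is not reported here. Counts of 3 set the floor for genes at 0, which covers counting error only. Gene positions are those of GENCODE M21 on GRCm38, in which 52489 of the identifiers were found.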

Additional observations from a re-analysis of the deposited data

Results flagged for a closer look

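Of 200 sets of a member's values in a group of 4 to 10 libraries with a mean of at least 10 CPM, 29 held a library that stood apart from its fellows by Dixon's criterion, which chance alone meets in about 1 of 20 sets. The libraries are shared between members, so these cases are not independent. WT library 1 accounts for 16 of them, always as the highest of the 6 WT libraries. Among the scaffold members it held 392 CPM for Cnfn (next library 160), 799 CPM for Evpl (next library 451), 314 CPM for Lor (next library 89.0), 278 CPM for Pof1b (next library 115) and 1098 CPM for Ppl (next library 512). Among the small proline-rich members it held 290 CPM for Sprr1b (next library 132) and 865 CPM for Sprr3 (next library 240). Among the secreted members it held 847 CPM for Krtdap (next library 535), 1322 CPM for Dmkn (next library 821) and 327 CPM for Sbsn (next library 177). Among the enzyme, inhibitor and lipid members it held 337 CPM for Asprv1 (next library 173), 928 CPM for Spink5 (next library 374), 2953 CPM for Tgm3 (next library 2010), 225 CPM for Cers3 (next library 156) and 237 CPM for Elovl4 (next library 83.7). Among the pore-forming members it held 43.1 CPM for Gsdma (next library 13.7). Without that library 11 members were higher and 8 lower in SmoM2 than in WT cells, against 9 and 9 with it.

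In junction columnar cells, library 4 was the highest for Evpl at 47.2 CPM (next 34.9). In SmoM2 cells, library 1 was the highest for Cstb at 167 CPM (next 129), library 6 was the highest for Rptn at 86.1 CPM (next 30.8), library 1 was the highest for Tgm1 at 1097 CPM (next 682), library 4 was the highest for Tgm5 at 43.1 CPM (next 30.4) and library 6 was the highest for Trex2 at 38.3 CPM (next 28.7). In 3w EpCam-high cells, library 1 was the highest for Evpl at 343 CPM (next 278) and library 3 was the lowest for Krtdap at 133 CPM (next 163). In 7w EpCam-high cells, library 2 was the lowest for Cers3 at 94.0 CPM (next 118), library 1 was the highest for Cnfn at 87.0 CPM (next 55.6), library 1 was the highest for Sprr1b at 63.9 CPM (next 32.3), library 1 was the highest for Sprr3 at 121 CPM (next 56.7) and library 2 was the highest for Trex2 at 14.2 CPM (next 13.2). The causes of these single high or low libraries were not tested.

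The gate difference of Cstb, EpCam-high over EpCam-low, differed between 7w and 3w by -0.48 on the log2 scale (edgeR, adjusted p = 0.0199), with EpCam-high values below EpCam-low values in 4 of 4 libraries of each week. Its adjusted p over the alternatives that ended the call ranged from 0.0509 to 0.49.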

How the results depend on the processing

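Of 7084 values of single members under the alternatives, 6709 kept their direction and side of the threshold, 196 lost a call, 179 gained one and 0 called values changed direction. Counts for SmoM2 against WT and for embryonic against WT cells stayed within 1.5 times of those given. For K8YFP+ against K8YFP- cells, 3110 genes were called, against 4772 with library totals, 6733 with all 14 groups in one fit, 4785 with the replicate block and 1016 to 2263 with 1 library left out. For Sox9cKO against SmoM2 cells, 454 genes were called, against 767 with no filter, 1206 with DESeq2, 1524 with all 14 groups, 125 with the block and 207 to 2153 with 1 library left out. Its 1 lower member became 2 with library totals, 4 with no filter, 6 with DESeq2, 2 with all 14 groups (and 1 higher), 0 with the block and 0 to 15 with 1 library left out.

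Between the gates at 3w, 2625 genes were called, against 1378 with all 14 groups and 5300 with the block. Its 5 higher members became 10 with no filter, 16 with the block and 3 to 5 with 1 library left out, and its 3 lower members 1 with all 14 groups and 6 with the block. Between the gates at 7w, the block gave 19 higher and 9 lower members. Throughout, counts of members under an alternative that stand without the share of all genes show only how far a count moved. They do not set the members apart from other genes. For the gate difference between the weeks, 398 genes became 42 with all 14 groups and 2243 with the block. Its 0 higher members became 1 with no filter and 6 with the block, and its 1 lower member 0 with no filter or with all 14 groups, 7 with the block and 0 to 1 with 1 library left out. For 7w against 3w, the 2 lower members in EpCam-high cells and the 3 in EpCam-low cells each became 1 with all 14 groups, and 1 to 2 and 1 to 4 with 1 library left out. Against WT cells, the 1 higher member of EpCam-low cells at 3w became 3 with no filter, 2 with the block and 1 to 2 with 1 library left out, and at 7w library totals gave 1 higher. In junction columnar against junction squamous cells, library totals, no filter and all 14 groups each gave 1 higher member. In junction squamous against WT cells, leaving out 1 library gave 9 to 15 lower members. The causes of these changes were not tested.

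Outside the K8YFP and 3w pairs, same-numbered libraries did not all deviate together (correlations of 0.074 to 0.227 between the 7w gates, where 4 of 4 numbers matched best, -0.136 to 0.151 for SmoM2 and WT, where 1 of 6 did, and -0.178 to 0.265 for Sox9cKO and SmoM2), so their block describes a shared number only. For SmoM2 against WT the block gave 10 higher and 8 lower members. Where 1 library was left out of a pair of libraries, the lone library was assumed to vary like the other groups. Members with a mean of a few CPM, such as Ivl, Cdsn and Crnn, rest on few counts, and K8YFP+ library 2 was the shallowest of all.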
